A study of Homo sapiens with 6 samples.

Results

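Lysosomes are the acidic organelles in which cells break down proteins, sugars and lipids, and autophagy delivers cytoplasmic cargo to them. A list of 57 human genes of this system was followed here in HCT116 cells, an established human colon cancer cell line, and 54 of the 57 could be measured among 11963 genes on the array. Members were taken by gene symbol: a probe set had to be annotated to that gene alone, and a gene with several such probe sets was read by the one with the highest mean over all 6 arrays. The selection of a probe set used no difference between the groups. GLB1, ATP6V1F and VMP1 were skipped, because each was read only by a probe set annotated to a second gene as well.

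The study set HCT116 cells with a stably expressed short hairpin RNA against NFX1-91, a splice form of the zinc finger protein NFX1, against HCT116 cells with a hairpin against β-galactosidase, a bacterial enzyme that human cells lack. Both hairpins were delivered by the lentiviral vector FUGW, so the controls carried a vector and a hairpin too. There were 3 Affymetrix arrays of NFX1-91 shRNA cells and 3 of control cells, made from total RNA, and the labels name no clone, passage or time after infection. Nor do they tell if replicate arrays stem from different cultures. The p-values thus reflect only how far these 6 arrays scatter, which can be technical scatter.

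Lysosomal enzymes are carried from the Golgi by mannose 6-phosphate receptors, and the vacuolar proton pump (V-ATPase) acidifies the organelle that they work in. Autophagy starts with the ULK1 kinase complex and a lipid kinase complex that holds BECN1, and linked conjugation reactions then attach small ATG8 proteins such as LC3 to the growing membrane, where they bind cargo receptors such as SQSTM1. The transcription factors TFEB and TFE3 bind the CLEAR element, an extended E-box found in the promoters of many of these genes, and when nutrients are plentiful the kinase complex mTORC1 holds them outside the nucleus.

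Signals were scaled to an array mean of 500. Log2 fold changes are differences between group means of log2(signal + 16), NFX1-91 shRNA minus control, which understates the change of dim genes, and a change "by" a number with no other unit is such a log2 difference. Fold values are the same differences turned back from log2, so they include the offset too and can be smaller than the ratio of the printed signals. Adjusted p-values come from limma with Benjamini-Hochberg adjustment over all genes. Across the arrays, Pearson correlation over genes was 0.993 to 0.995 within groups and 0.984 to 0.985 between groups. Of the 3 NFX1 probe sets, the brightest had a scaled signal of 134 ± 8.39 in NFX1-91 shRNA arrays and 148 ± 10.7 in control arrays (SD, n = 3 each; log2 fold change -0.13, adjusted p over probe sets = 0.4), so it did not pass the threshold. The dimmest passed it, with 7.42 ± 2.48 in NFX1-91 shRNA arrays and 19.6 ± 4.17 in control arrays (log2 fold change -0.60, adjusted p over probe sets = 0.0137), and the probe sets were not assigned to splice forms. The epithelial markers EPCAM, KRT8, KRT18 and KRT19 had brightness percentiles of 97.7 to 99.6 over all genes. The others on that list were dimmer, with CLDN4 at 79.2, ELF3 at 75.9, CDH1 at 75.2 and CDX1 at 37.1. Of 8 genes on the epithelial list 2 rose (KRT8 and KRT18) and 3 fell (CDH1, EPCAM and ELF3), and their part in the results below was not tested. By limma, 0 of 7 macrophage and monocyte genes, 0 of 7 fibroblast genes and 0 of 4 lymphoid genes passed an adjusted p of 0.05, and 0 of these genes had an unadjusted p under 0.05. The summed signal of the 7 macrophage and monocyte genes was 126 to 177 in NFX1-91 shRNA arrays and 133 to 159 in control arrays. On average 4 of the 7 (CD14, LYZ, CD163 and TYROBP) were below the offset of 16 in both groups, and 3 were above it in both: CSF1R at 46.1 in NFX1-91 shRNA arrays and 57.8 in control arrays, FCER1G at 33.4 in NFX1-91 shRNA arrays and 28.7 in control arrays and ITGAM at 21.8 in NFX1-91 shRNA arrays and 32.5 in control arrays. Their part in the results was not tested. Arrays of bulk RNA cannot tell a smaller share of some cells from less RNA per cell.

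Of the 54 measured members, 16 were higher and 8 lower in NFX1-91 shRNA cells at an adjusted p under 0.05 (limma). That was 44.4% of the members, against 32.5% of all genes, and it leaned to the higher side. The share higher was 29.6% of members against 14.7% of all genes, and the share lower was 14.8% against 17.8%. Their median log2 fold change was -0.02, beside 0.00 over all genes, and the 30 members that did not pass lay between -0.33 and 0.29. Changes were modest in size: 10 members rose and 5 fell by at least 1.25-fold, or 18.5% and 9.26% of the members, where 9.34% and 13% of all genes did. The groups did not overlap for 31 members, or 57.4%, against 43.5% of all genes.

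The members were bright: 49 of the 54 lay above the median brightness of all genes. When genes below the 40th percentile of brightness were left out of the fit, 17 of 52 members were higher and 7 lower. Those shares, 32.7% and 13.5%, stood beside 25.3% and 29.7% of the 7178 genes that were left, so the gap in rises was narrower among bright genes and the gap in falls was wider. Neither gap was tested.

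**Figure D1:**
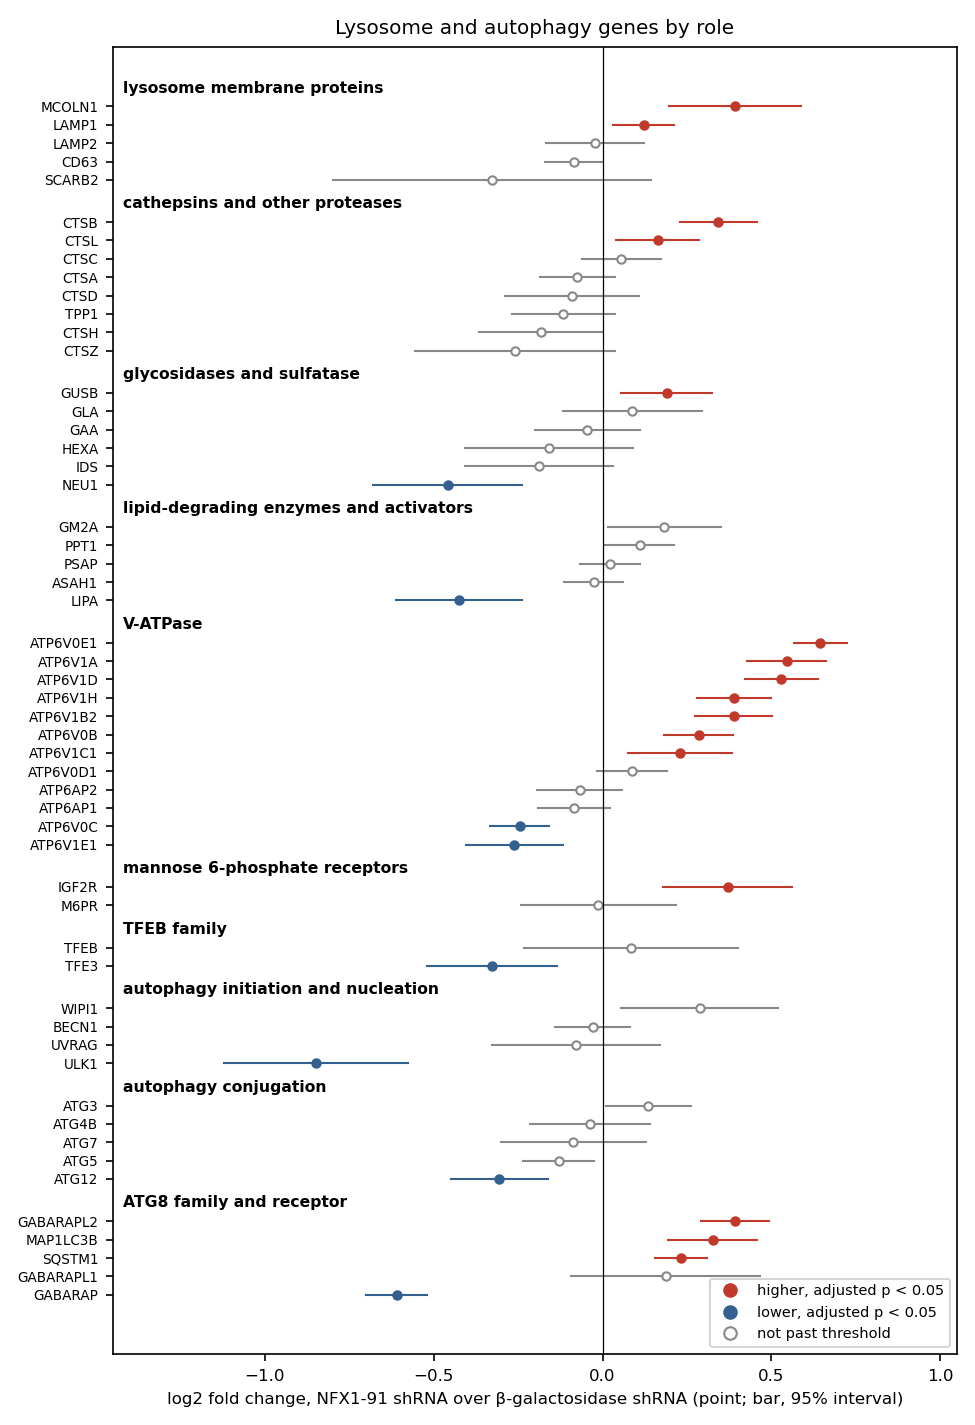
Log2 fold change of the 54 measured members, NFX1-91 shRNA over β-galactosidase shRNA, grouped by role, with bars for the 95% interval from limma. Red points (16) were higher and blue points (8) lower at an adjusted p under 0.05, and 7 of the 16 rises are V-ATPase subunits.

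The proton pump, the largest role on the list, had the most rises in number, while the ATG8 family with its receptor had a like share (60%) of 5 genes. Of 12 measured V-ATPase genes 7 rose, 2 fell and 3 did not pass, and the median log2 fold change was 0.26. That is 58.3% higher and 16.7% lower, against 14.7% and 17.8% of all genes. With dim genes left out the pump had the same 7 rises and 2 falls, beside 25.3% and 29.7% of the genes that were left. These gaps were not tested. The pump has a cytosolic V1 sector, which splits ATP, and a V0 sector in the membrane, which lets protons through. In V1, 5 of 6 genes rose and 1 fell. In V0, 2 of 4 rose and 1 fell.

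ATP6V1A, the catalytic A subunit, had signals of 1320.3, 1354 and 1428 in the NFX1-91 shRNA arrays, against 972, 941 and 883 in the control arrays. All 3 NFX1-91 shRNA arrays were above all control arrays, by 1.46-fold (log2 fold change 0.55, SE 0.053, adjusted p = 4.07e-05). ATP6V1D, part of the central stalk that turns when ATP is split, had signals of 1238, 1301 and 1198 in the NFX1-91 shRNA arrays, against 873, 861 and 839 in the control arrays. These groups did not overlap either, and the rise was 1.44-fold (log2 fold change 0.53, SE 0.048, adjusted p = 2.86e-05). The nucleotide-binding B subunit ATP6V1B2 averaged 993 ± 45.2 in NFX1-91 shRNA arrays and 754 ± 17 in control arrays (SD, n = 3 each), a log2 fold change of 0.39 (adjusted p = 0.000284), and the regulatory subunit ATP6V1H had the same log2 fold change of 0.39 (adjusted p = 0.000225). ATP6V1C1, which joins the outer stalks to the membrane sector, rose by 0.23 (adjusted p = 0.0287), a call that did not hold without NFX1-91 shRNA replicate 1 (log2 fold change 0.19), NFX1-91 shRNA replicate 2 (0.21) or control replicate 1 (0.16). Of its other 2 probe sets 1 rose by 0.59 and 1 read -0.0029 without passing.

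The V1 gene that went the other way was ATP6V1E1, a subunit of the outer stalks. It averaged 1563 ± 87.3 in NFX1-91 shRNA arrays and 1879 ± 158 in control arrays (log2 fold change -0.26, SE 0.064, adjusted p = 0.0107), with adjusted p = 0.0542 without NFX1-91 shRNA replicate 2.

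In the membrane sector, ATP6V0E1, a small subunit, had signals of 2849, 2779 and 2769 in the NFX1-91 shRNA arrays, against 1798, 1789 and 1765 in the control arrays. This was the largest rise of any member, 1.56-fold, with arrays of each group within a few percent of each other (log2 fold change 0.65, SE 0.035, adjusted p = 1.6e-06). ATP6V0B, one of the proton-carrying ring subunits, rose by 0.28 (adjusted p = 0.000987). ATP6V0C, the most numerous subunit of the same ring, fell, with means of 1987 ± 72.2 in NFX1-91 shRNA arrays and 2358 ± 10.8 in control arrays (log2 fold change -0.25, SE 0.039, adjusted p = 0.000954). Its second probe set fell too, by 0.25. ATP6V0D1, which couples the ring to the stalk, had a log2 fold change of 0.09, adjusted p = 0.186, and the accessory proteins ATP6AP1 (-0.08, adjusted p = 0.217) and ATP6AP2 (-0.07, adjusted p = 0.421) did not pass.

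**Figure D2:**
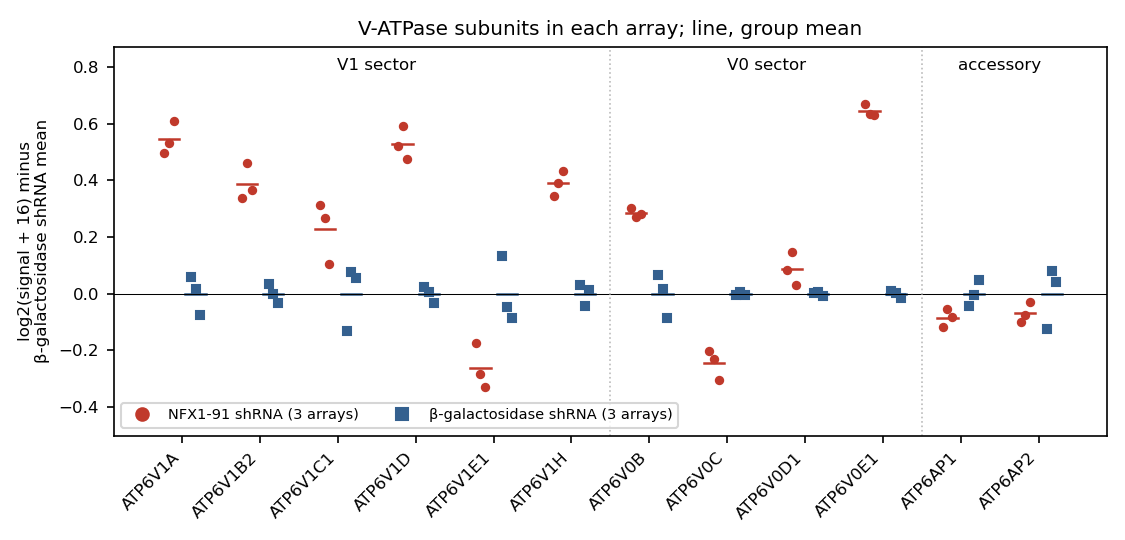
Each of the 12 measured V-ATPase genes in each array, as log2(signal + 16) minus the mean of the 3 β-galactosidase shRNA arrays, with NFX1-91 shRNA arrays as red circles left of the control arrays (blue squares) and a line at each group mean. The 7 genes that rose have all red points above all blue ones, while ATP6V0C and ATP6V1E1 have them below.

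In the ATG8 family with its receptor SQSTM1, 3 of 5 genes rose, 1 fell and 1 did not pass. That is 60% higher and 20% lower, against 14.7% and 17.8% of all genes, a gap that was not tested. GABARAP, an ATG8 protein that binds the ULK1 complex and cargo receptors, had signals of 1595, 1621 and 1506 in the NFX1-91 shRNA arrays, against 2436, 2395 and 2398 in the control arrays. It fell 1.53-fold with no overlap (log2 fold change -0.61, SE 0.041, adjusted p = 5.36e-06), and it has a single probe set. None of the 3 relatives on the list was called lower. GABARAPL2 averaged 1658 ± 59.8 in NFX1-91 shRNA arrays and 1259.9 ± 33.5 in control arrays (log2 fold change 0.39, SE 0.045, adjusted p = 0.000114). MAP1LC3B, which encodes the LC3B protein used to mark autophagosomes, had signals of 1916, 1954 and 2032 in the NFX1-91 shRNA arrays, against 1433, 1585 and 1686 in the control arrays. All arrays with the NFX1-91 hairpin were above the highest control array, which itself stood 1686 against 1433 in the lowest (log2 fold change 0.33, SE 0.059, adjusted p = 0.00194), and a second MAP1LC3B probe set rose by 0.56. GABARAPL1, the closest relative of GABARAP, had a log2 fold change of 0.19, adjusted p = 0.307.

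SQSTM1, the p62 cargo receptor, had signals of 3567, 3612 and 3514 in the NFX1-91 shRNA arrays, against 3117, 3017 and 2966 in the control arrays. The arrays of both groups were tight and apart (log2 fold change 0.23, SE 0.034, adjusted p = 0.00059), a rise of 1.17-fold. Its dimmer second probe set did not pass (log2 fold change -0.12, adjusted p over probe sets = 0.468), and the mean of both gave 0.057 (adjusted p = 0.481).

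Genes that start autophagy included the largest fall of any member. ULK1, the kinase that starts the process, had signals of 40.6, 49.9 and 39.6 in the NFX1-91 shRNA arrays, against 83.6, 97.0 and 91.4 in the control arrays. The highest NFX1-91 shRNA array stood below the lowest control array. With the offset added, ULK1 fell 1.8-fold (log2 fold change -0.85, SE 0.121, adjusted p = 0.00047), which understates the fall of these dim signals. It was also among the dimmest members, at percentile 39.4 of brightness over all genes, with a single probe set. BECN1, a core subunit of the lipid kinase complex, had a log2 fold change of -0.03, adjusted p = 0.728, and its partner UVRAG one of -0.08, adjusted p = 0.658. WIPI1, which binds the lipid that this kinase makes, had means of 158 ± 18.2 in NFX1-91 shRNA arrays and 126 ± 6.23 in control arrays, and its arrays did not overlap but did not pass (log2 fold change 0.29, SE 0.103, adjusted p = 0.0597). It passed without NFX1-91 shRNA replicate 1 (log2 fold change 0.36, adjusted p = 0.0303).

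Of the 5 conjugation genes 1 fell and 4 did not pass. The share lower, 20%, was near the 17.8% of all genes. ATG12, the small protein that is joined to ATG5, averaged 1147 ± 60.7 in NFX1-91 shRNA arrays and 1424 ± 111 in control arrays (log2 fold change -0.31, SE 0.064, adjusted p = 0.00456), while its other 2 probe sets read 0.18 and 0.02 without passing, and the mean of all 3 gave -0.03 (adjusted p = 0.714). ATG5 itself had a log2 fold change of -0.13, adjusted p = 0.0614, the activating enzyme ATG7 one of -0.09, adjusted p = 0.556, the transfer enzyme ATG3 one of 0.14, adjusted p = 0.0985 and the protease ATG4B one of -0.04, adjusted p = 0.787. Without 1 array the call of 2 of these changed: ATG5 passed without NFX1-91 shRNA replicate 3 (-0.16, adjusted p = 0.0368) and ATG3 without NFX1-91 shRNA replicate 1 (0.19, adjusted p = 0.0319).

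**Figure D3:**
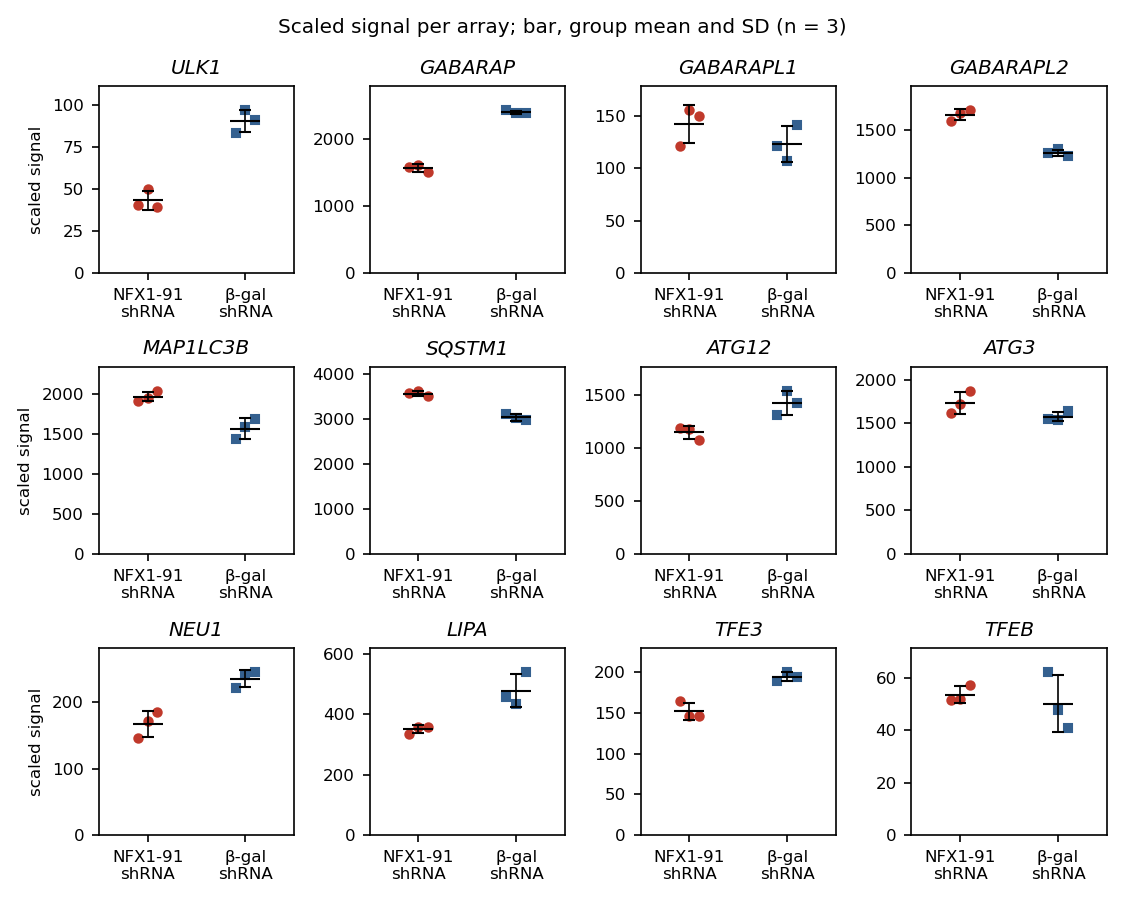
Scaled signal of 12 members in each array, NFX1-91 shRNA (red circles) left of β-galactosidase shRNA (blue squares), with the group mean and SD (n = 3) as black bars and each axis starting at 0. ULK1, GABARAP, ATG12, NEU1, LIPA and TFE3 lie lower in NFX1-91 shRNA cells, GABARAPL2, MAP1LC3B and SQSTM1 higher, and GABARAPL1, ATG3 and TFEB overlap.

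Of the transcription factors of the pathway, TFE3 fell and TFEB did not pass. TFEB, the dimmest member, had signals of 51.6, 52.0 and 57.2 in the NFX1-91 shRNA arrays, against 62.1, 47.5 and 40.8 in the control arrays. The NFX1-91 shRNA arrays fell inside the control range, and no change was detected (log2 fold change 0.09, SE 0.141, adjusted p = 0.713, 95% interval -0.23 to 0.40). TFE3 had signals of 164, 146 and 146 in the NFX1-91 shRNA arrays, against 189, 199.9 and 195 in the control arrays. It fell 1.25-fold without overlap (log2 fold change -0.33, SE 0.086, adjusted p = 0.0147), and its dimmer probe set fell by 0.61. The TFE3 call was lost without NFX1-91 shRNA replicate 2 (adjusted p = 0.0698) or control replicate 2 (adjusted p = 0.0644).

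Among lysosome membrane proteins 2 of 5 rose and 3 did not pass. That is 40% higher and 0% lower, against 14.7% and 17.8% of all genes, a gap that was not tested. MCOLN1, the calcium channel of the lysosome membrane also called TRPML1, averaged 242 ± 18.7 in NFX1-91 shRNA arrays and 181 ± 10.4 in control arrays (log2 fold change 0.39, SE 0.087, adjusted p = 0.00633). LAMP1, a main glycoprotein of that membrane, had signals of 3739, 3817 and 3773 in the NFX1-91 shRNA arrays, against 3669, 3401 and 3343 in the control arrays. The groups did not overlap, but the gap between them was small (log2 fold change 0.12, SE 0.040, adjusted p = 0.043). The call was lost when any array but control replicate 1 was left out, with log2 fold changes of 0.096 to 0.13, and a dim LAMP1 probe set went the opposite way, with 60.6 ± 10.2 in NFX1-91 shRNA arrays and 159.5 ± 3.62 in control arrays (log2 fold change -1.21, adjusted p over probe sets = 0.000158). The direction of LAMP1 therefore depended on the probe set, and the brightest one did not pass when adjusted over probe sets (limma adjusted p over probe sets = 0.0604). LAMP2 (-0.02, adjusted p = 0.847) and the tetraspanin CD63 (-0.08, adjusted p = 0.124) did not pass. SCARB2, the receptor that carries glucocerebrosidase to lysosomes, did not pass either (-0.33, adjusted p = 0.288), and this rested on control replicate 1. Its signals in control arrays were 190.1, 331 and 382, and without the first of them its log2 fold change was -0.61 (adjusted p = 0.00466). With all arrays, the dimmer SCARB2 probe sets read 0.06 and 0.18 without passing, against the sign of the brightest.

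Of the mannose 6-phosphate receptors, IGF2R, which also clears the growth factor IGF2, rose, with means of 654 ± 8.40 in NFX1-91 shRNA arrays and 504 ± 65.4 in control arrays (log2 fold change 0.37, SE 0.085, adjusted p = 0.0076). M6PR, the smaller receptor, had a log2 fold change of -0.01, adjusted p = 0.952.

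Of 19 measured enzymes and activators, 3 rose, 2 fell and 14 did not pass, or 15.8% and 10.5%, against 14.7% and 17.8% of all genes. With dim genes left out the enzymes had the same 3 rises and 2 falls in number, beside 25.3% and 29.7% of the genes that were left. Among proteases, the cysteine cathepsin CTSB averaged 1759.7 ± 35.5 in NFX1-91 shRNA arrays and 1385 ± 84.0 in control arrays (log2 fold change 0.34, SE 0.050, adjusted p = 0.000553), and 2 of its other 3 probe sets also rose. CTSL, a second cysteine cathepsin, was higher by 0.16 (adjusted p = 0.0449). It did not pass without NFX1-91 shRNA replicate 2 or 3 or control replicate 1 or 3 (adjusted p of 0.0875 to 0.148). The aspartic cathepsin CTSD (-0.09, adjusted p = 0.5), CTSA (-0.07, adjusted p = 0.301), CTSC (0.06, adjusted p = 0.483), CTSZ (-0.26, adjusted p = 0.173) and tripeptidyl peptidase TPP1 (-0.12, adjusted p = 0.24) did not pass. Nor did CTSH (-0.18, adjusted p = 0.121), which passed without NFX1-91 shRNA replicate 3 (-0.26, adjusted p = 0.0231).

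Of the glycosidases and the sulfatase, 1 rose and 1 fell of 6. That is 16.7% each, near the 14.7% and 17.8% of all genes. NEU1, the lysosomal sialidase, had signals of 146, 172 and 185 in the NFX1-91 shRNA arrays, against 221, 241 and 245 in the control arrays. The groups were apart, and NEU1 fell 1.37-fold (log2 fold change -0.46, SE 0.099, adjusted p = 0.00531). The β-glucuronidase GUSB rose by 0.19 (adjusted p = 0.0349), which was no longer called when any array but control replicate 1 was left out (adjusted p of 0.0725 to 0.136). GLA (0.09, adjusted p = 0.534), the acid α-glucosidase GAA (-0.05, adjusted p = 0.684), HEXA (-0.16, adjusted p = 0.333) and the iduronate sulfatase IDS (-0.19, adjusted p = 0.184) did not pass. HEXA passed without NFX1-91 shRNA replicate 1 (-0.29, adjusted p = 0.0405). Of the 9 IDS probe sets 1 rose (log2 fold change 0.35), against the sign of the brightest.

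In lipid breakdown 1 of 5 genes fell, or 20%, near the 17.8% of all genes that were lower. LIPA, the lysosomal acid lipase that frees cholesterol from its esters, had signals of 335, 357 and 357 in the NFX1-91 shRNA arrays, against 459, 434 and 539 in the control arrays. It was lower in every NFX1-91 shRNA array, by 1.34-fold (log2 fold change -0.43, SE 0.083, adjusted p = 0.00317). The acid ceramidase ASAH1 (-0.03, adjusted p = 0.685), the saposin precursor PSAP (0.02, adjusted p = 0.733), the thioesterase PPT1 (0.11, adjusted p = 0.0984) and the ganglioside activator GM2A (0.18, adjusted p = 0.0925) did not pass. PPT1 passed without control replicate 1 (0.15, adjusted p = 0.0176), as did the pump's ATP6AP2 (-0.13, adjusted p = 0.0402).

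Several probe sets read the same gene in 12 of the 24 called members. For 8 of these 12 another probe set was called in the same direction, for LAMP1 another was called in the opposite one, and for IGF2R, SQSTM1 and ATG12 no other passed. These other probe sets were called by limma with adjustment over all probe sets. Adjusted that way, the LAMP1 probe set used for the gene did not pass (adjusted p over probe sets = 0.0604), nor did that of CTSL (0.0646). The remaining 12 called members have a single probe set and could not be checked this way. Among the 30 members not called, the arrays of the groups did not overlap for 7 (CD63, PPT1, GM2A, ATP6AP1, ATP6V0D1, WIPI1 and ATG5). This is common on these arrays: the groups did not overlap for 43.5% of all genes, while 32.5% of all genes were called. Of the 30, 17 have other probe sets, and 2 of those 37 probe sets passed, the IDS one and an ATG5 one that fell by 0.52.

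**Figure D4:**
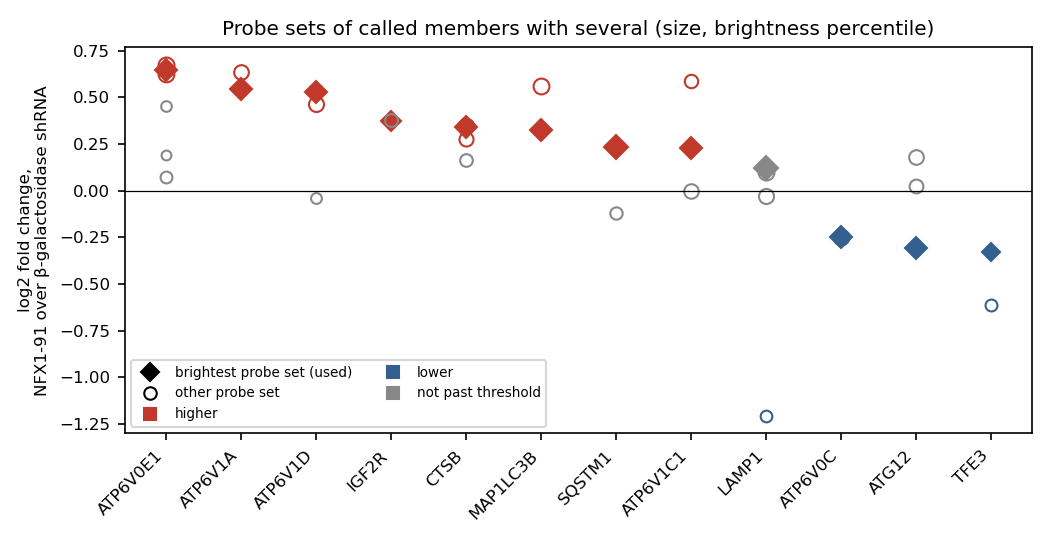
Log2 fold change, NFX1-91 shRNA over β-galactosidase shRNA, of every single-gene probe set of the 12 called members that have several, with diamonds for the brightest one, open circles for the others and colour for the call adjusted over probe sets. ATP6V0E1, ATP6V1A, ATP6V1D, CTSB, MAP1LC3B, ATP6V1C1, ATP6V0C and TFE3 have a second probe set called the same way, and the LAMP1 probe set at -1.21 lies far below the other 3.

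Promoter sequences were searched for the letters that TFEB and TFE3 are known to bind, as a description of what the members share. RefSeq windows from 250 bases before to 50 after a transcription start, on GRCh38.p14, were at hand for 43 of the 54 measured members. The E-box CACGTG reads the same on both strands, and the longer TCACGTGA, the core of the CLEAR element, contains it and does so too. CACGTG stood in a window of 12 of the 43 members (27.9%), against 8.77% of 27305 genes with a window and 7.26% of all 35116 windows. TCACGTGA stood in 7 members (16.3%), against 1.18% of genes and 0.98% of windows. The letters were in members that rose, fell and did not pass: CACGTG was found for 4 of 10 higher members with a window, 1 of 8 lower and 7 of 25 not called, and TCACGTGA for 3, 0 and 4 of them. The 7 members not called were CD63, CTSA, CTSD, GAA, M6PR, ATP6V0D1 and ATG3.

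The 5 called members with the E-box letters are shown to let a reader see the sites beside the changes given above, each on the gene's strand 5′ to 3′ upstream of the start, with every CACGTG in capitals. They are NEU1 (chr6:31862892-31862997, minus strand, lower by 0.46 in NFX1-91 shRNA cells), MCOLN1 (chr19:7522533-7522623, plus strand, higher by 0.39), IGF2R (chr6:159968900-159969081, plus strand, higher by 0.37), ATP6V0B (chr1:43974853-43974959, plus strand, higher by 0.28) and LAMP1 (chr13:113296997-113297238, plus strand, higher by 0.12 at the brightest probe set).
NEU1: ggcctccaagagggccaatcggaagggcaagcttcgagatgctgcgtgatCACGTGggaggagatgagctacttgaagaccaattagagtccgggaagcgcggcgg
MCOLN1: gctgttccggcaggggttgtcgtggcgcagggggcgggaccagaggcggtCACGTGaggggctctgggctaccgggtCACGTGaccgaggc
IGF2R: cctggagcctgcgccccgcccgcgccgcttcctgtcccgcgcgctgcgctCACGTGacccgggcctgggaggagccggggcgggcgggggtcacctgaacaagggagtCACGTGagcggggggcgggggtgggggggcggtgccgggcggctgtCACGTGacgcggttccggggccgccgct
ATP6V0B: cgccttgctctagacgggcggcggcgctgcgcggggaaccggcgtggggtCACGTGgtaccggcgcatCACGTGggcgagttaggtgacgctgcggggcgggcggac
LAMP1: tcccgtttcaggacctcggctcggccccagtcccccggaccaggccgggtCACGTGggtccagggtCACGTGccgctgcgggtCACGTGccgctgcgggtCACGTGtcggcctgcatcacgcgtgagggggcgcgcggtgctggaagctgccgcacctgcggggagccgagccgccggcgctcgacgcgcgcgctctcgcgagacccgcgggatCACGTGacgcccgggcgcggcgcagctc

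Of these stretches, those of MCOLN1 and IGF2R hold 2 and 3 sites, and each of them is a full TCACGTGA. ATP6V0B holds 2 that are not. LAMP1 holds 5, of which the one nearest the start, beginning 28 bases before it, is a full TCACGTGA, and a sixth site of its window spans the start and is not printed. NEU1, the only one of the 5 that fell, holds 1 site, beginning 126 bases before the start, that is not a full TCACGTGA. Whether any factor was bound at these letters was not measured.

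Further genes of the same pathways were read from 7 lists written for their known functions. Of 149 measured genes in these lists 37 were higher and 23 lower, or 24.8% and 15.4%, against 14.7% and 17.8% of all genes. With dim genes left out, 41 of 127 were higher and 27 lower, or 32.3% and 21.3%, beside 25.3% and 29.7% of all genes that were left. None of these gaps was tested. The autophagy receptor list had 9 higher and 1 lower of 15 (60% and 6.67%), with a median log2 fold change of 0.18. NCOA4, which brings ferritin to lysosomes, averaged 2502 ± 60.9 in NFX1-91 shRNA arrays and 1744 ± 34.9 in control arrays (log2 fold change 0.52), and BNIP3 (log2 fold change 0.33), a receptor for mitochondria, and TOLLIP (0.38), a ubiquitin-binding adaptor, rose as well. NBR1, a receptor that works beside SQSTM1, was the gene that fell, with 439.6 ± 36.4 in NFX1-91 shRNA arrays and 706 ± 39.3 in control arrays (log2 fold change -0.67).

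The list for fusion and sorting at the lysosome leaned the other way, with 2 higher and 9 lower of 28 (7.14% and 32.1%). Of all genes 14.7% were higher and 17.8% lower, and with dim genes left out 25.3% and 29.7% of those left. The share lower was thus near that of brighter genes, though the list itself was not counted that way. These gaps were not tested. VPS4A, the ATPase that takes ESCRT complexes off membranes, averaged 317 ± 22.3 in NFX1-91 shRNA arrays and 907 ± 71.2 in control arrays (log2 fold change -1.47, SE 0.075, adjusted p = 1.15e-06). GGA3, an adaptor that sorts mannose 6-phosphate receptors, fell by 1.03. BLOC1S1, a subunit of complexes that place lysosomes, fell to 230.0 ± 37.8 in NFX1-91 shRNA arrays, against 471 ± 18.0 in control arrays. VAMP7, a SNARE of late endosomes, rose by 0.43.

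Genes of nutrient sensing at the lysosome split into 5 higher and 5 lower of 23 (21.7% each), against 14.7% and 17.8% of all genes. With dim genes left out, 25.3% and 29.7% of the genes left were called, though the list itself was not counted that way. These gaps were not tested. PPP3CB, a catalytic subunit of calcineurin, the phosphatase that can activate TFEB, averaged 224 ± 25.0 in NFX1-91 shRNA arrays and 685 ± 48.0 in control arrays (log2 fold change -1.55, SE 0.089, adjusted p = 2.06e-06). MLST8, a subunit of mTORC1, fell by 1.02, while RRAGD, a Rag GTPase that places mTORC1 on lysosomes, rose by 0.64 and SESN1, a sestrin that restrains mTORC1, by 0.66.

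Other acid hydrolases had 7 higher and 2 lower of 27 (25.9% and 7.41%). Of all genes 14.7% were higher and 17.8% lower, and with dim genes left out 25.3% and 29.7% of those left. How far this list and the next ones stand from those shares was not tested. The fucosidase FUCA1 rose by 0.57, the ribonuclease RNASET2 by 0.41 and NAGPA, which uncovers the mannose 6-phosphate tag, by 0.80, while the sulfatase GALNS fell by 0.51. Other membrane proteins and carriers had 7 higher and 2 lower of 22 (31.8% and 9.09%). Here the peptide transporter ABCB9 rose by 1.13, the nucleotidase ENTPD4 by 0.79 and LAPTM4A by 0.20, and LAPTM4B fell by 0.46. Other autophagy machinery had 5 higher and 3 lower of 25 (20% and 12%). The protease ATG4A rose by 0.92, the lipid kinase subunit ATG14 by 0.79 and RB1CC1, a partner of ULK1, by 0.34, and the lipid scramblase ATG9A fell by 0.70.

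The remaining V-ATPase genes had 2 higher and 1 lower of 9 (22.2% and 11.1%), against 14.7% and 17.8% of all genes. Of the genes left without dim ones, 25.3% were higher and 29.7% lower. ATP6V0A1, a form of the large membrane subunit, rose by 0.32 and ATP6V1G1, an outer stalk subunit, by 0.19. ATP6V0E2, the sister gene of ATP6V0E1, fell by 0.60 (adjusted p = 0.000407), so the 2 genes for the small membrane subunit changed in opposite directions.

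**Figure D5:**
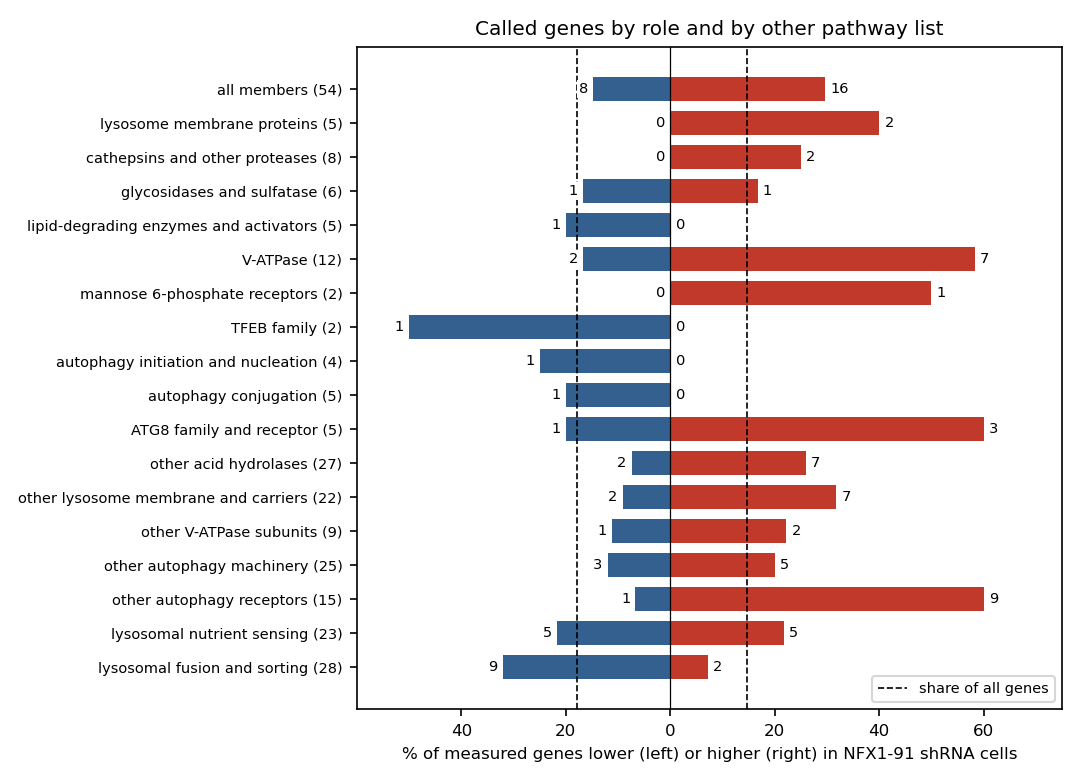
Share of measured genes called higher (red, right) or lower (blue, left) in NFX1-91 shRNA cells at an adjusted p under 0.05, for the members, their roles and the 7 other lists, with the number of measured genes in brackets and the number called beside each bar. Dashed lines mark the shares of all genes, 14.7% higher and 17.8% lower, and V-ATPase subunits, the ATG8 family and autophagy receptors reach farthest to the right.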

How the data were processed

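Affymetrix arrays were hybridised with biotinylated cRNA made from total RNA, per the labels' protocols, and groups and replicate numbers come from the titles. The deposited intensity values are linear, and each array's 22215 values sum to 1, so they are shares of an array. The authors' probe summary and scaling method were not found in the labels or headers. Between 397 and 451 values per array repeat 1 low value, which no member's probe set reached. Depth does not apply to arrays; their number limits the precision.

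Each array was multiplied by 1 common factor to a mean of 500, and log2(signal + 16) was taken. The platform annotation gave 19064 probe sets with 1 gene, 1043 with several and 2108 with none; symbols were updated by gene identifier from RefSeq (GRCh38.p14), where 19052 matched. Groups were compared over 11963 genes with limma 3.58.1 in R 4.3.3 (lmFit, trended eBayes; unpaired, two-sided, Benjamini-Hochberg over all genes, threshold 0.05). The exact permutation p of a single gene cannot go below 0.1 with 3 against 3 arrays, so none passes by that test. Steps were tested on simulated data. Promoters were searched and figures drawn with Python 3.11.15 and matplotlib 3.10.9.

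Values in every array were printed for called members with no overlap and a log2 fold change of at least 0.4 in size, and for TFEB, TFE3, LAMP1, SQSTM1 and MAP1LC3B. From each other list up to 4 genes with the smallest adjusted p were named. Members and lists were chosen with earlier results of these data known. Alternatives changed the scaling (quantile or median centring), the probe set (mean of all, or none of the shared ones), the offset (1 or 64), the variance model (untrended, robust or with array weights), the threshold (0.01), the dim genes (left out), the arrays (each left out in turn) and the pairing (a replicate block).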

Additional observations from a re-analysis of the deposited data

Results flagged for a closer look

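Probe sets annotated to a member and to another gene took no part in the comparison of genes, and 2 of 5 such probe sets differed between the groups. In that comparison 32.5% of all genes were called, and how far 2 of 5 stands from this share was not tested. The 2 are picked out because they carry a signal outside the comparison of genes. The probe set shared by MIR21 and VMP1, an autophagy membrane protein whose gene overlaps that of the microRNA, had signals of 1908, 2037 and 1934 in NFX1-91 shRNA arrays and 1552, 1569 and 1456 in control arrays. Its log2 fold change was 0.36 (SE 0.047, limma adjusted p over probe sets = 0.000636), and the groups did not overlap. The probe set shared by GABARAPL1 and its near-copy GABARAPL3 had 347 ± 25.4 in NFX1-91 shRNA arrays and 278 ± 5.73 in control arrays (SD, n = 3 each), a log2 fold change of 0.30 (limma adjusted p over probe sets = 0.0165). Which of the paired genes gave either signal was not tested. The probe sets shared by GLB1 and TMPPE (0.14), ATP6V1F and LOC101927180 (-0.02) and M6PR and PHC1 (-0.06) did not pass.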

How the results depend on the processing

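For the 24 called members, direction and call held in 371 of 407 values from 17 alternatives, and 16 of the 24 held in each one run for them. The exceptions were LAMP1, CTSL, GUSB, ATP6V1C1, ATP6V1E1, TFE3, ATG12 and SQSTM1. The sign turned for LAMP1 by the mean of its probe sets (-0.25) and for ATP6V1C1 with shared probe sets left out (-0.0029). Of the 30 members not called, 11 passed under at least 1 alternative, WIPI1 under 7. Leaving out 1 array gave 1265 to 1845 of all 11963 genes higher and 1650 to 2075 lower. Of the members 12 to 15 were then higher and 6 to 10 lower, with 6 to 7 V-ATPase members higher and 1 to 3 lower. The 1 followed the loss of NFX1-91 shRNA replicate 2. Without a variance trend and at a threshold of 0.01, 1 V-ATPase member was lower. At 0.01, 1136 of 11963 genes were higher, against 1762 at 0.05. Same-numbered arrays did not deviate together (correlations of -0.028, 0.081 and -0.021). The replicate block gave 13 members higher and 8 lower, beside 1629 and 1969 of all genes. By limma with that block, LAMP1 (adjusted p = 0.056), CTSL (0.0602) and GUSB (0.0653) were no longer called. Median centring moved the median of all genes by 0.029 and gave 17 members higher and 8 lower, beside 1955 and 1874 of all genes. Array weights gave 21 members higher and 10 lower, with 8 V-ATPase members higher and 2 lower, beside 2422 and 2671 of all genes. The causes of these shifts were not tested. Dim members such as ULK1 and TFEB were left out with the dim genes, so that setting gives no value for them.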
